A study of Mus musculus with 8 samples.

Results

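The 6 genes described here are *Bdh1*, *Bdh2*, *Acat1*, *Oxct1*, *Aacs* and *Fgf21*, which act in the synthesis and use of ketone bodies or encode a hormone that the liver releases in fasting. They were chosen by symbol from the 27179 genes measured in mouse liver, and all 6 had reads. RNA was sequenced from whole liver of adult male C57BL/6NHsd mice after a 6-h fast, in 4 wild-type mice and 4 mice homozygous for the V227A substitution in PPARɑ. The substitution was made in the germline with an adenine base editor, so every cell of the mutant animals carries it, and the line descends from 1 heterozygous founder that was backcrossed to C57BL/6NHsd. The values used here are 1 average level per gene over the 8 libraries, as the authors computed it. Levels per mouse were not analysed here, so the spread between mice and the difference between genotypes cannot be given from these averages, and no test was made.

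In fasting, hepatocytes break fatty acids down to acetyl-CoA in mitochondria and turn part of it into the ketone bodies acetoacetate and beta-hydroxybutyrate. The thiolase ACAT1 acts at the start of the path to acetoacetate, and beta-hydroxybutyrate dehydrogenase (BDH1) reduces acetoacetate at its end. Other organs reverse the path with BDH1, with succinyl-CoA:3-ketoacid CoA-transferase (OXCT1, also known as SCOT) and with ACAT1, and the liver is known for lacking the CoA-transferase step. FGF21 is a hormone that liver secretes in fasting, and its gene and many ketogenic genes are textbook targets of PPARɑ.

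The sequence upstream of the gene starts was read from RefSeq for GRCm38.p6, where 5 of the 6 genes have a promoter window, from 250 bases before to 50 bases after the start. *Acat1* has no window there, and *Bdh1* has 2, for 2 start sites. Each window was searched on both strands for the TATA box (TATAAA), the E-box core of carbohydrate response (CACGTG), the GC box core (GGGCGG), the CCAAT box (CCAAT) and the core of a cAMP or stress response site (TGACGT). It was also searched for the nuclear receptor half-site (AGGTCA) and for DR1, the form that PPARɑ and RXR bind, taken as 2 exact copies of that half-site spaced by 1 base. The 100 bases before the start are shown for 3 genes, in lower case with the motifs in capitals. *Fgf21* is shown because it is the gene with motifs in this stretch, *Aacs* because its window holds the most CpG dinucleotides and *Bdh2* because its window holds the fewest.
Fgf21, chr7:45615491-45615590, minus strand: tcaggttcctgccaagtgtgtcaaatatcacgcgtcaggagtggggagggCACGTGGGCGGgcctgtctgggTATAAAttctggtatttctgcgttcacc
Aacs, chr5:125475773-125475872, plus strand: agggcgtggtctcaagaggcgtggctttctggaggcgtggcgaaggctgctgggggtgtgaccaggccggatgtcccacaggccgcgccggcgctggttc
Bdh2, chr3:135281121-135281220, plus strand: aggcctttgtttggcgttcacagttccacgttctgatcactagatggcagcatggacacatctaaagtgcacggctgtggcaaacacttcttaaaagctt

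The *Fgf21* window held TATAAA from position -28 to -23 before the start, which 13.6% of all 32851 windows hold somewhere. It also held CACGTG from -50 to -45, which factors such as ChREBP can bind, and 7.15% of all windows hold this motif. GGGCGG occurred 3 times in the *Fgf21* window, once overlapping CACGTG by 1 base, and 35.7% of all windows hold it. The *Bdh2* window held CCAAT from -141 to -137 on the minus strand, upstream of the stretch shown, a motif that 37.4% of all windows hold. GGGCGG also lay from 16 to 21 bases after the second start of *Bdh1*. The windows of *Aacs*, *Oxct1* and the first start of *Bdh1* held none of the motifs. The 6 windows held 0 matches of AGGTCA, which 16.3% of all windows hold, 0 of TGACGT, which 7.51% hold, and 0 of DR1, which 0.0396% hold. These are matches of letters in a 300-base window, and sites farther away or with other letters were not searched.

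The windows differed in base composition. *Aacs* had 30 CpG in its window, at the 88.3rd percentile of all windows, and 63.3% G or C. The window of the second *Bdh1* start had 17 CpG, that of *Oxct1* 11 and that of *Fgf21* 9. *Bdh2*, with 6 CpG, and the first *Bdh1* start, with 7, lay at or below the median window, which has 7. The order of CpG content was not the order of the liver levels given next.

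The level of a gene is given on 2 scales. The first is the authors' average log2 CPM, the logarithm of read counts scaled to the size of a library (CPM), and the second is the number of reads per kb of transcript per library that this average corresponds to, which allows genes to be compared. The mean library had an estimated 27473997 reads, and the median gene with reads had 100.1 reads per library and 40.2 reads per kb. The CPM values still hold a prior count of 2 reads, which the reads per library do not, so CPM runs high for genes with few reads. Intervals in brackets cover 95% of the counting error and nothing else.

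By reads per kb of the longest coding transcript, which is meant by per kb unless another is named, the order was *Acat1*, *Bdh1*, *Aacs*, *Bdh2*, *Fgf21* and *Oxct1*, and it spanned a 90.7-fold range. The first 4 of these genes lay above the median gene with a known length, at the 96.7th, 94.7th, 88.6th and 82.2nd percentile. *Fgf21* and *Oxct1* lay just below it, at the 48.8th and 47.2nd percentile. Going down the order, *Acat1* was 1.77-fold above *Bdh1*, *Bdh1* 2.56-fold above *Aacs*, *Aacs* 1.81-fold above *Bdh2* and *Bdh2* 9.81-fold above *Fgf21*, per kb. *Fgf21* was 1.13-fold above *Oxct1*, and their counting intervals overlapped. Per kb of the shortest coding transcripts 2 of these steps turned, with *Oxct1* 1.79-fold above *Fgf21* and *Bdh1* above *Acat1*, and the step from *Bdh1* to *Aacs* grew to 9.91-fold. *Fgf21* was then the lowest of the 6 and the range was 176-fold, while *Oxct1* and *Fgf21* were still below the median gene, at the 46.2nd and 40.6th percentile. *Acat1*, *Aacs* and *Bdh2* fell to the 91.6th, 75.0th and 68.9th percentile, and *Bdh1* rose to the 96.1st. The reads per kb of *Acat1* and *Aacs* did not change and those of *Bdh2* rose, so these falls came from the other genes. The median gene had 90.9 reads per kb of the shortest transcript, against 40.2 of the longest. Whether the other neighbours differ by more than the spread between mice cannot be said from averages over the mice.

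**Figure D1:**
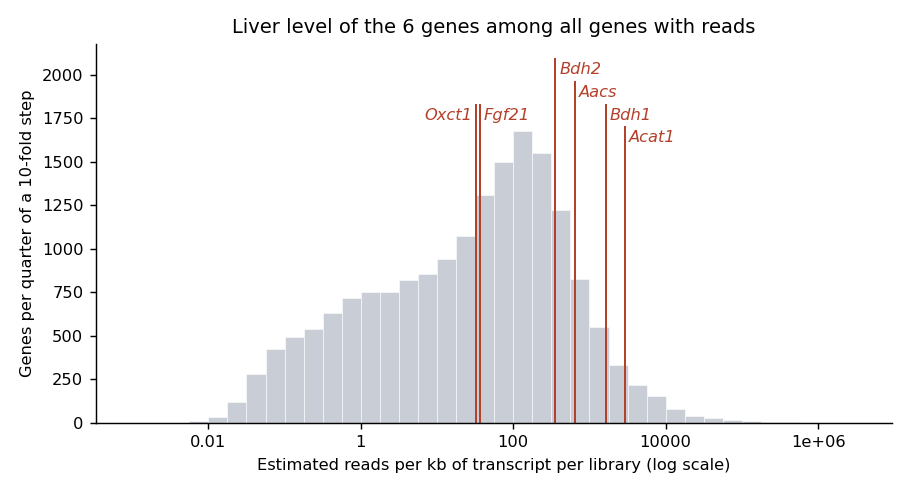
The horizontal axis gives the estimated reads per kb of transcript per library on a log scale, the grey bars count the genes with reads and a known length, and each red line is the average of 1 of the 6 genes over the 8 libraries. *Oxct1* and *Fgf21* lie near the middle of all genes and *Acat1*, *Bdh1*, *Aacs* and *Bdh2* to the right of the main peak.

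*Acat1* encodes the mitochondrial acetoacetyl-CoA thiolase, which joins 2 acetyl-CoA for ketone synthesis and splits acetoacetyl-CoA in ketone use. In GRCm38 the gene spans 53580522 to 53610382 of chromosome 9, minus strand, with 12 exons and a coding sequence of 424 codons in GENCODE vM21. Its average was 8.50 log2 CPM, or 363 CPM, which corresponds to 9971 reads per library [9902 to 10040] and 2928 reads per kb [2908 to 2949]. This was the highest level of the 6 genes per kb of the longest transcript. The cytosolic thiolase gene *Acat2* had 541 reads per kb, 5.41-fold less than *Acat1*.

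*Bdh1* encodes the mitochondrial dehydrogenase that interconverts acetoacetate and beta-hydroxybutyrate with NADH. The gene lies on the plus strand of chromosome 16, from 31422280 to 31458901, and its longest coding transcript has 7 exons and encodes 343 residues. Its average was 7.56 log2 CPM, or 188 CPM, which corresponds to 5168 reads per library [5119 to 5218] and 1655 reads per kb [1640 to 1672]. Its level is the one that depended most on the transcript used. Per kb of its shortest coding transcript, of 807 bases, which the annotation marks as incomplete at its coding end, *Bdh1* had 6404 reads and stood above *Acat1*. The locus overlaps the antisense gene *Gm15743*, and whether the counting used the strand is not given in the sources used here.

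*Acat1* and *Bdh1* were also set beside the genes that deliver their substrate. In the 7 genes that supply acyl-CoA and acetyl-CoA from fatty acids, levels ran from 431 reads per kb for *Hadhb* to 20623 for *Acaa2*, another mitochondrial thiolase, with a median of 2943. *Acaa2* stood 7.04-fold above *Acat1* per kb, or 21.2-fold with the shortest coding transcripts, where that of *Acaa2* was not checked for completeness. Per kb of the longest transcript, *Acat1* and *Bdh1* both lay within the range of this list. For *Bdh1* this rests on *Hadhb* alone, since the next lowest gene, *Cpt2*, had 1827 reads per kb and stood above *Bdh1*.

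**Figure D2:**
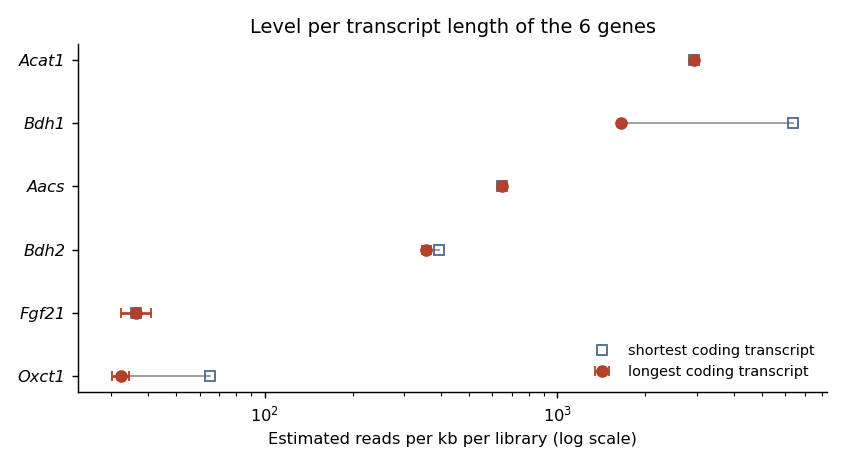
Filled circles give reads per kb of the longest coding transcript with the 95% counting interval, squares give reads per kb of the shortest coding transcript, and the horizontal axis is a log scale. *Bdh1* moves from 1655 to 6404 reads per kb and *Oxct1* from 32.3 to 65.3, while *Acat1*, *Aacs* and *Fgf21* have 1 length each.

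*Oxct1* encodes the CoA-transferase that activates acetoacetate with succinyl-CoA, the step that commits ketone bodies to oxidation. It lies on the plus strand of chromosome 15, from 4026383 to 4155344, with 17 exons and 520 codons. Its average was 2.08 log2 CPM, or 4.22 CPM, which corresponds to 114 reads per library [107 to 121], 911 in all 8 libraries. Per kb of the longest transcript it had 32.3 reads [30.2 to 34.4], the lowest of the 6 genes, but per kb of the shortest it had 65.3 and stood above *Fgf21*. This level was above 0 and 51.3-fold less than *Bdh1* and 90.7-fold less than *Acat1* per kb, or 98.0-fold and 44.8-fold less with the shortest coding transcripts. The locus overlaps *BC037032* and the antisense gene *Gm15632* by whole gene spans, and neither is among the genes measured. Whether their exons overlap those of *Oxct1* was not checked, and whether the counting used the strand is not given. It is therefore not known whether reads from them were counted on *Oxct1*.

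The testis forms of the same enzyme had almost no reads. *Oxct2a* had none, and *Oxct2b* had 0.251 reads per library, 2.01 reads in all 8. Of the 6 genes of ketone use, *Acat1*, *Bdh1*, *Aacs* and *Oxct1* had over 100 reads per library. The median of the list was 339 reads per kb, and *Acat1* was the highest. In whole liver, fewer cells of a type and less RNA per cell cannot be told apart, so the *Oxct1* level is a mean over all cells of the tissue.

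Marker genes gave a check of which cells the samples held. The 6 hepatocyte markers had 40164 to 1.91e+06 reads per library. Markers of the other cells of liver had reads too, from 113 to 2251 for the 5 Kupffer cell markers, 295 to 1214 for the 5 endothelial markers, 202 to 2736 for the 5 stellate cell markers and 34.1 to 657 for the 5 cholangiocyte markers. Of the 4 red blood cell markers 3 were measured, at 109 to 2142 reads. The 4 T and NK cell markers had 2.49 to 13.3 reads, the 3 B cell markers 4.03 to 16.3 and the 3 neutrophil markers 0.126 to 11.6.

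Markers of tissues other than liver were low, with *Cela1* as the exception. The 4 skeletal muscle markers had at most 18.8 reads per library, and of the 3 heart markers *Myh6* and *Nppa* had no reads and *Tnnt2* had 31.7. The 3 kidney tubule markers had at most 0.625 reads and the 3 adipocyte markers at most 6.88. Of the 5 pancreas acinar markers, *Cpa1*, *Pnlip*, *Prss2* and *Amy2a5* had no reads and *Cela1* had 820. Per kb, the 32.3 reads of *Oxct1* lay within the range of the cholangiocyte markers (8.33 to 436) and near the lowest stellate cell (34.0), Kupffer cell (39.9) and endothelial (53.1) markers, the first of which is inside its counting interval. With the shortest coding transcripts *Oxct1*, at 65.3, lay above the lowest marker of each of these 4 cell types (32.2 to 53.1), so its place among them depends on the transcript. The part of each cell type in the *Oxct1* reads was not tested.

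**Figure D3:**
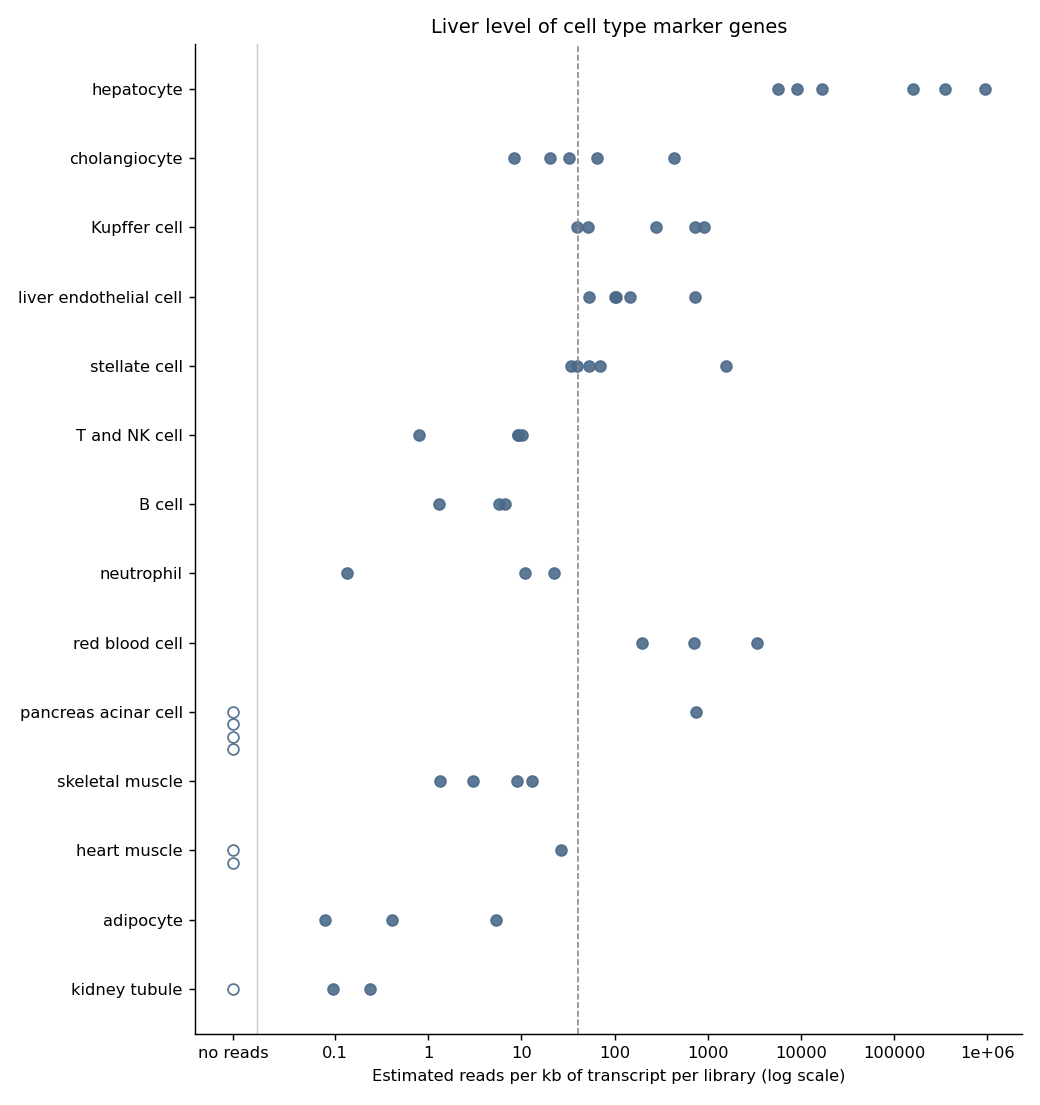
Each point is 1 marker gene, the horizontal axis gives estimated reads per kb of transcript per library on a log scale, open circles are genes with no reads and the dashed line is the median gene. Hepatocyte markers stand highest, and markers of heart, kidney and adipose tissue lie below the median gene.

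*Aacs* encodes acetoacetyl-CoA synthetase, a cytosolic enzyme that activates acetoacetate for the synthesis of cholesterol and fatty acids. It lies on the plus strand of chromosome 5, from 125475814 to 125517410, with 18 exons and 672 codons. Its average was 6.25 log2 CPM, or 76.2 CPM, which corresponds to 2093 reads per library [2061 to 2125] and 646 reads per kb [636 to 656]. Per kb, *Aacs*, which serves lipid synthesis from acetoacetate, stood 20.0-fold above *Oxct1*, which serves its oxidation, and 9.89-fold above it with the shortest coding transcripts. These are transcript levels, and how these livers used acetoacetate was not tested. The locus overlaps the microRNA gene *Gm27551*, which is not among the genes measured.

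*Bdh2* encodes a cytosolic short-chain dehydrogenase that was named for activity on beta-hydroxybutyrate and has also been tied to the making of a siderophore that binds iron. It lies on the plus strand of chromosome 3, from 135281221 to 135304426, with 10 exons and 255 codons. Its average was 3.94 log2 CPM, or 15.3 CPM, which corresponds to 419 reads per library [405 to 433] and 357 reads per kb [345 to 369]. The mitochondrial dehydrogenase gene *Bdh1* stood 4.64-fold higher per kb, and 16.2-fold higher with the shortest coding transcripts. With the shorter of its 2 coding transcripts *Bdh2* had 395 reads per kb and kept its place in the order.

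Of the 6 genes for cytosolic acetoacetate and HMG-CoA enzymes, 5 had over 100 reads per library. *Hmgcs1*, the cytosolic HMG-CoA synthase of sterol synthesis, was the highest at 716 reads per kb. *Aacs* was at 0.903 of its level per kb of the longest transcript and at 0.0928 of it with the shortest. Whether the shortest *Hmgcs1* transcript is complete was not checked. *Hmgcll1* was the lowest with 0.881 reads per library. In both pairs of genes, *Bdh1* with *Bdh2* and *Acat1* with *Acat2*, the gene of the mitochondrial enzyme had the higher transcript level per kb. The difference was 4.64-fold and 5.41-fold, or 16.2-fold and 4.33-fold with the shortest coding transcripts. *Bdh1* and *Bdh2* were paired by name and need not encode forms of the same enzyme.

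**Figure D4:**
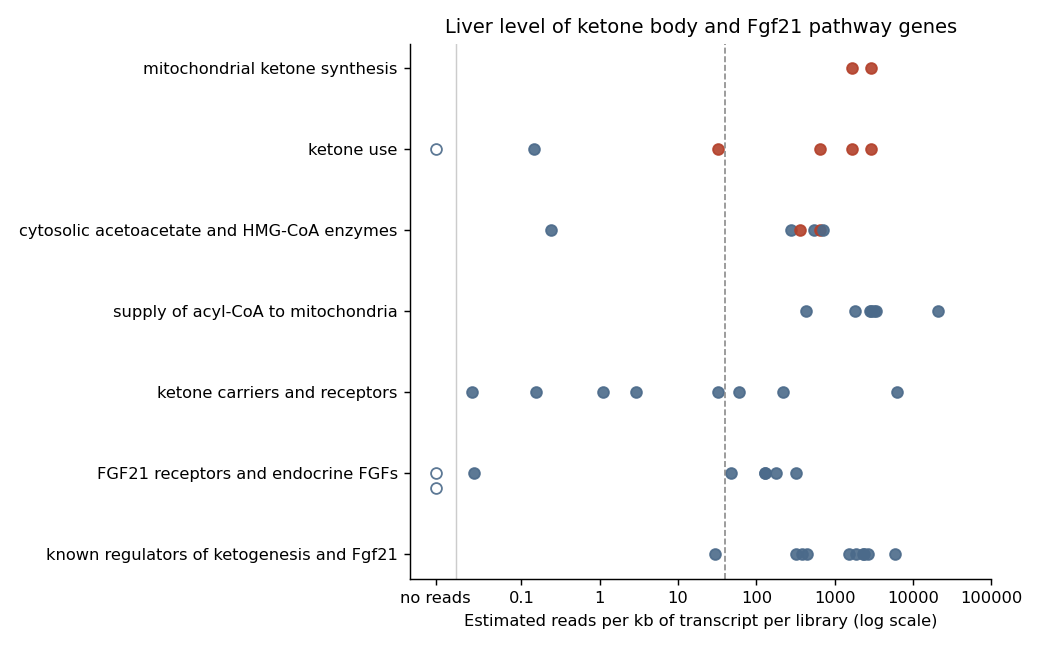
Each point is 1 gene of a list, red points are members of the 6 genes, open circles are genes with no reads, the dashed line is the median gene, and the horizontal axis gives estimated reads per kb of transcript per library on a log scale. *Acat1* and *Bdh1*, the red points of mitochondrial ketone synthesis, lie at 2928 and 1655 reads per kb, and *Oxct1* is the red point at 32.3.

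Ketone bodies leave hepatocytes through monocarboxylate carriers. Of the 8 carriers and receptors of ketone bodies, 4 had over 100 reads per library, and the median was 17.5 reads per kb. *Bsg*, which encodes the chaperone of these carriers, was the highest at 6320 reads per kb, and the sodium-coupled carrier *Slc5a8* was the lowest with 0.123 reads per library. Outside the rule for naming genes, *Slc16a1* and *Slc16a6* are named for their known role in export. They had 220 and 32.0 reads per kb, an order that turned with the shortest coding transcripts, where *Slc16a6* had 314. Whether the shortest transcript of *Slc16a6* holds the whole coding sequence was not checked, so the turn may not reflect its level.

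*Fgf21* lies on the minus strand of chromosome 7, from 45613886 to 45615490, with 3 exons and 210 codons, the smallest gene of the 6. Its average was 0.41 log2 CPM, or 1.33 CPM, which corresponds to 34.6 reads per library [30.7 to 38.9], 277 in all 8 libraries. Per kb it had 36.4 reads [32.2 to 40.9], 80.5-fold less than *Acat1*. It was the gene with the fewest reads of the 6, and its counting interval was the widest for its size.

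The receptors for FGF21 are FGF receptors bound to the co-receptor beta-klotho. *Klb*, which encodes beta-klotho, had 178 reads per kb, 4.88-fold above *Fgf21*. *Fgfr4*, the main FGF receptor of hepatocytes, was the highest of the 8 receptors and endocrine FGFs at 322 reads per kb. The other FGF receptor genes of the list were lower, with *Fgfr1* at 47.2, *Fgfr2* at 129 and *Fgfr3* at 129. Which receptor FGF21 acts through in these livers was not tested. *Kl*, the co-receptor for FGF23, was the lowest above 0 with 0.127 reads per library. *Fgf15* and *Fgf23*, the other endocrine FGFs, had no reads, so *Fgf21* was the endocrine FGF gene with reads in these livers.

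The 10 known regulators of ketogenesis and *Fgf21* all had over 100 reads per library, with a median of 1720 reads per kb. *Creb3l3*, a fasting-induced factor that acts with PPARɑ on *Fgf21*, was the highest at 5838 reads per kb, 160-fold above *Fgf21*. *Ppara*, the gene that carries the substitution, had 2670 reads per kb, and its partner *Rxra* had 2377. The coactivator gene *Ppargc1a* was the lowest at 29.3 reads per kb. These are levels of transcripts over both genotypes and say nothing of the activity of the proteins.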

How the data were processed

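RNA from frozen liver was made into stranded poly-A libraries and sequenced as paired-end reads. Per the methods and the labels, reads were trimmed with Trimmomatic, checked with FastQC, aligned to GRCm38 (mm10) with STAR, counted on genes with featureCounts and compared between genotypes with edgeR by the authors. Tool versions, gene annotation and the strandedness used in counting are not given in the sources used here. No filter on low counts is stated, and the 27179 genes listed include 8242 taken as without reads. The paper ranks *Lpl* among 18937 genes, which is the number with reads here.

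The table deposited by the authors lists 27179 genes. Its average log2 CPM, computed by the authors over all 8 libraries, is the value used here. The other 4 measured columns hold the authors' own comparison of the genotypes (log2 fold change, F statistic, p-value and false discovery rate) and were not used. With 0 columns per library, means and SDs per genotype cannot be computed, and the planned test of V227A against wild-type was not run.

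The 8242 genes at the lowest average, -3.78, were taken as genes without reads, which left 18937. With a prior count of 2, this lowest value gives a mean library size of 27473997 reads, and each average was turned into reads per library from it. With this prior, the 918 genes in the lowest class with reads had totals of 0.984 to 1.02 reads, and of the 2378 genes with 1 to 5 reads in total, 99.9% were whole to a tolerance of 0.1. The size of each library is unknown, so a total is exact only if sizes are alike. The conversion was tested on simulated data (16199 genes, 8 libraries, dispersion set at 0.05), where the median error was 0.601%. These data were made with the same prior count, so they cannot test it, nor the real spread of library sizes. Reads per kb use the longest coding transcript in GENCODE vM21, known for 94.8% of genes with reads. Promoter windows come from RefSeq for GRCm38.p6. Intervals are exact Poisson intervals (95%) on total reads.

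The members and lists were chosen with earlier results of these data known. The text names all 6 members. From each list the rule was to name the highest gene, the lowest above 0 and those at the step of a member, at most 4. Outside it, *Cpt2*, *Slc16a1*, *Slc16a6*, *Klb*, *Fgfr1*, *Fgfr2*, *Fgfr3*, *Fgf15*, *Fgf23*, *Ppara* and *Rxra* are also named, as are further marker genes. Some genes of the lists are not reported here. Python 3.11.15, pandas 2.3.3, numpy 2.4.6, scipy 1.17.1 and matplotlib 3.10.9 were used.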

Additional observations from a re-analysis of the deposited data

How the results depend on the processing

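The number of the 6 genes above the median gene by average log2 CPM was 5 among genes with reads, 6 among all genes of the table, 4 among genes with a symbol and 3 among the genes with an average log2 CPM of at least 0. By reads per kb it was 4. The median of the 6 genes was 1256 reads per library, which became 313.9 with a prior count of 0.5 and 3139 with a prior count of 5, since the estimate scales with the prior. The median per kb went from 501.6 to 520.7 reads with the shortest coding transcript in place of the longest. Against the order by average log2 CPM, 1 pair of genes changed places per kb of the longest transcript (*Fgf21* and *Oxct1*) and 1 per kb of the shortest (*Acat1* and *Bdh1*). The percentile of each of the 6 genes also moved with the genes it was ranked among, that of *Fgf21* from 40.5 to between 3.71 and 58.5 and that of *Oxct1* from 51.2 to between 21.2 and 66.0.

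No paired analysis was possible because the deposited table gives 1 average per gene and no values per library. For the same reason the alternatives planned for the comparison of the genotypes were not run: other size factors, another tool, no filter on low counts, the replicate number as a block, and leaving out each library. At this depth, *Fgf21* is the gene whose level is least precise, and the spread between mice is unknown for all 6.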
